A study of Mus musculus with 32 samples.

Results

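The Egr transcription factors and their Nab corepressors were followed in primary hippocampal cultures as 6 genes, Egr1, Egr2, Egr3, Egr4, Nab1 and Nab2, taken by gene symbol from a table of 51267 features. All 6 had enough counts to be tested, among 17173 features that did. Hippocampi of newborn (P0) mice were cultured to day in vitro (DIV) 16, exposed to an agent for 30 minutes, and total RNA was sequenced. The groups were forskolin at 50 µM (FSK, 6 libraries), a plant compound that makes adenylyl cyclase produce cAMP, DHPG at 30 µM (6 libraries), which activates group I metabotropic glutamate receptors, and the same volume of the solvent dimethyl sulfoxide (DMSO, 4 libraries). Every library, DMSO included, came from DIV16 neuron cultures. The labels do not state whether libraries of a group are separate cultures or animals, so p-values measure the spread between libraries.

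Egr proteins are zinc-finger transcription factors that bind GC-rich sites in promoters and are encoded by immediate-early genes, which cells switch on without making new protein. In neurons their mRNAs rise after synaptic activity, calcium entry or cAMP, through the kinases ERK and PKA and the DNA-bound factors SRF, Elk and CREB, and Egr1 is widely used as a marker of recently active neurons. Nab1 and Nab2 bind Egr proteins and repress their target genes by bringing in the NuRD chromatin complex, and Nab2 is itself a target of Egr factors, which closes a feedback loop.

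Promoter sequence is shown for the genes whose windows held sites of this pathway, so that the sites can be read beside the responses. RefSeq tables (GRCm38.p6) gave windows of 250 bases before an annotated start for 4 of the 6 genes, with 5 windows for Egr2. The motifs searched on both strands were the cAMP response element TGACGTCA and its first 5 bases TGACG, which read as CGTCA on the other strand, the CArG box bound by SRF, the Ets core CCGGAA, and the Egr sites GCGTGGGCG and GCGGGGGCG. Capitals mark the matches. The Egr2 stretch at chr10:67537789-67537818 on the plus strand, 80 to 51 bases before the start at 67537869, held a CArG box and a TGACG site. The stretches at chr10:67537494-67537523 and chr10:67537424-67537453 lie before another Egr2 start, at 67537566, and held a second CArG box and Ets cores. TGACG is contained in the full element, and the adjoining Ets matches on opposite strands of the third stretch overlap each other.
Egr2, CArG box and TGACG: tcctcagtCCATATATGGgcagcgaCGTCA
Egr2, CArG box and Ets core: CCTTTTTTGGaaagtctcggagaaCCGGAA
Egr2, Ets cores on both strands: gaagtttaattTTCCGGAAtggctcccaaa

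Egr4 has its start at chr6:85513589 on the minus strand, and its whole window, chr6:85513590-85513839, is shown because it held a pair of TGACG sites, 177 and 109 bases before the start. The Nab1 window, chr1:52500449-52500698 on the minus strand, held Egr sites 141, 109 and 38 bases before the start at 52500448 and a TGACG site, and 30 bases around each Egr site are shown. None of the motifs searched was found in the 250 bases before the Nab2 start, chr10:127666704-127666953.
Egr4, TGACG sites: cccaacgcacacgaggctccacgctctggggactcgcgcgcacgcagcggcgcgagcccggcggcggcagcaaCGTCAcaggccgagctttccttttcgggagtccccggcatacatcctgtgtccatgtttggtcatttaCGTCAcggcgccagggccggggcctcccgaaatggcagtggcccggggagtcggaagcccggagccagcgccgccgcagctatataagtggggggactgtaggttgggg
Nab1, Egr site and TGACG: gcggcCGCCCACGCcgggatctgCGTCAct
Nab1, Egr site GCGTGGGCG: ctcggccgcGCGTGGGCGggagccggagcg
Nab1, Egr site GCGGGGGCG: cgcggggcgggGCGGGGGCGgcggaggtgg

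Among 27025 genes with such windows, 1.62% had a CArG box, 19.8% TGACG, 1.77% the full cAMP response element, 13.6% the Ets core, 0.622% GCGTGGGCG and 2.93% GCGGGGGCG. A match is a description of letters, and binding was not measured. The annotated Egr2 locus, chr10:67534469-67542188, shares 1712 bases with the lncRNA gene Gm32255, and the Nab2 locus, chr10:127660918-127666703, shares 70 bases with Stat6. How reads in these shared bases were assigned is not given in the sources used here.

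Before the values, the libraries fall into 2 sets by depth. The 7 deep libraries (FSK 4 to 6, DHPG 6, DMSO 2 to 4) held 38409918 to 59958600 counts, of which mitochondrial rRNA took 10.8% to 27.7%. The 9 shallow libraries (FSK 1 to 3, DHPG 1 to 5, DMSO 1) totalled 20677117 to 24892959 counts, and their mitochondrial rRNA share was 1.47% to 2.92%. The sets were read from the deposited totals, not from labels, and are unevenly spread over the groups, with DHPG 6 the lone deep DHPG library and DMSO 1 the lone shallow DMSO library. Many results, though not all, are therefore given also with the set as a term in the fit or within sets. Markers of excitatory neurons (10 genes) summed to 839 to 1235 CPM in FSK, 1043 to 1625 in DHPG and 1233 to 1578 in DMSO, so the labelled neurons are present, beside astrocytes (3362 to 7615 CPM over all libraries). The 14 microglial markers, none at 0, summed to 256 CPM in FSK 4 and 431 CPM in FSK 5, against 27.2 to 56.4 CPM in the other FSK libraries, 28.7 to 58.0 in DHPG and 24.1 to 41.5 in DMSO. In bulk RNA, fewer cells of a type and less RNA per cell cannot be told apart.

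Egr2 was the Egr gene that rose with FSK, to 3.50 times its DMSO level, and it was also higher in every DHPG library than in every DMSO library. In edgeR's test, Egr1, Egr3 and Egr4 gave no call with either agent without the library-set term, and Egr1 rose with FSK once that term was added; limma-voom, given below, called each of them with 1 agent. Neither Nab gene passed either tool's test against DMSO. With FSK, 1 of the 6 genes passed (edgeR quasi-likelihood test, Benjamini-Hochberg adjusted p under 0.05), where 0.809% of all genes did and 0.349% passed as higher. With DHPG, 0 of the 6 passed, where 0.00582% of all genes did. Under DHPG, 1 of the 6, Egr2, had an unadjusted p under 0.05, where 12.4% of all genes did, and DESeq2 called that gene. The plot of levels by library shows the values behind these statements.

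**Figure D1:**
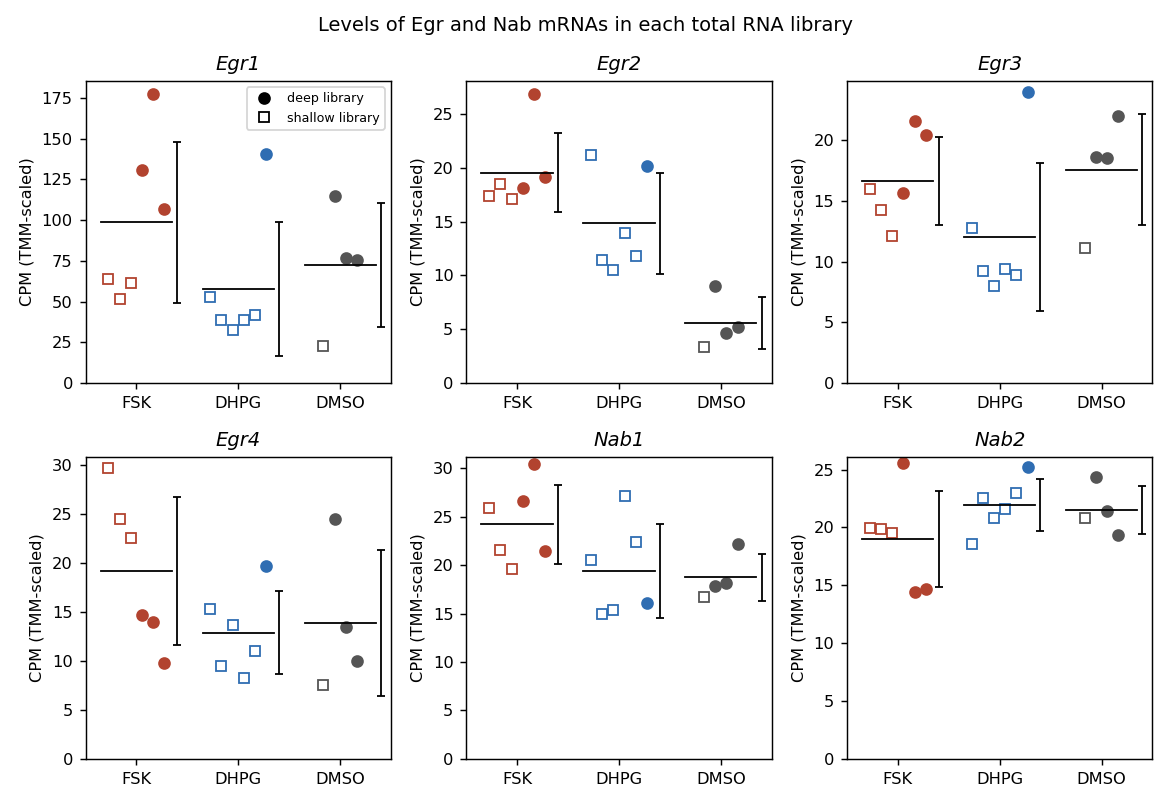
Levels (CPM, TMM-scaled, linear axes from 0) of the 6 mRNAs in each library of the FSK, DHPG and DMSO groups. Filled circles are deep and open squares shallow libraries, and the line and bar at the side of each group give its mean and SD. Egr2 lies between 17.1 and 26.9 CPM with FSK and between 10.5 and 21.2 with DHPG, above the 3.36 to 8.98 of DMSO, while Egr1 and Egr3 separate mostly by library set.

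Egr2, also called Krox20, is known for its part in hindbrain patterning and in Schwann cell myelination, and is an activity-regulated gene in neurons. Its level was 17.4, 18.5, 17.1, 18.1, 26.9 and 19.2 CPM in FSK 1 to 6 and 21.2, 11.4, 10.5, 13.9, 11.9 and 20.1 CPM in DHPG 1 to 6, against 3.36, 8.98, 4.64 and 5.23 CPM in DMSO 1 to 4. Every FSK library and every DHPG library was above every DMSO library, and the FSK and DHPG values overlapped. Among all genes tested, 3.62% had every FSK library above every DMSO library and 0.641% every DHPG library above every DMSO library. The mean was 19.5 ± 3.67 CPM with FSK (SD, n = 6) and 5.55 ± 2.41 CPM in DMSO (SD, n = 4). The log2 fold change with FSK was 1.81 ± 0.27 (SE; 95% interval 1.23 to 2.39; edgeR adjusted p = 0.0072).

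With the library-set term the FSK change of Egr2 was 1.96 ± 0.24 (edgeR adjusted p = 0.00044), where 9.45% of all genes passed and 3.45% passed as higher. Within the deep libraries the mean log2 difference was 1.795, from 3 FSK and 3 DMSO libraries, and within the shallow ones it was 2.37, from 3 FSK libraries and DMSO 1. In both sets every FSK library was above every DMSO library. Among all genes tested, 11% had this in the deep set, 39.6% in the shallow set and 7.94% in both. The highest Egr2 value was in FSK 5, the library with the most microglial marker RNA. FSK 5 also had the highest mitochondrial rRNA share (27.7%) and the highest astrocyte (7615 CPM) and oligodendrocyte lineage (1475 CPM) marker sums. The part of these in its Egr2 value was not tested. Without FSK 4 and FSK 5 the change was 1.69 (edgeR adjusted p = 0.025), and FSK 1 to 3, whose microglial markers were near the DMSO range, had 17.1 to 18.5 CPM. Without DMSO 3 the change was 1.73 and no longer passed (adjusted p = 0.061), while with the library-set term it passed with any library left out.

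With DHPG the mean of Egr2 was 14.8 ± 4.68 CPM (SD, n = 6), and the log2 fold change from DMSO was 1.41 ± 0.27 (95% interval 0.84 to 1.98), which missed the limit over all genes (edgeR adjusted p = 0.33). With the library-set term it was 1.71 ± 0.26 (95% interval 1.16 to 2.26; adjusted p = 0.052). The 2 comparisons share the 4 DMSO libraries. The within-set differences from DMSO were 1.73 for the lone deep DHPG library and 1.97 for the 5 shallow ones. Leaving out DMSO 2, the DMSO library with the most Egr2, brought the DHPG change to 1.76 (adjusted p = 0.021), and with the library-set term leaving out DMSO 2 or FSK 6 did so (adjusted p = 0.0072 and 0.032). DESeq2 called the DHPG change (1.42, adjusted p = 0.00052), where its background was 0.0255%. The authors' deposited table gives Egr2 log2 fold changes of 1.801 with FSK (adjusted p = 1.88e-09) and 1.42 with DHPG (adjusted p = 0.0013), where 8% and 1.48% of its genes passed. By size, the Egr2 change was above that of 98.7% of genes tested with FSK and 99.5% with DHPG.

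Egr1, also called Zif268 or Krox24, is the best studied of the family in memory and plasticity. Its level was 63.8, 51.8, 61.2, 131, 177 and 107 CPM in FSK 1 to 6 and 52.7, 38.7, 32.8, 39.0, 41.9 and 141 CPM in DHPG 1 to 6, against 23.0, 115, 76.6 and 75.6 CPM in DMSO 1 to 4. All 3 groups overlapped, and the deep libraries were high in each of them. Within DMSO itself the mean of the 3 deep libraries was 3.79 times the level of shallow DMSO 1, a ratio with no replicate on the shallow side. Means were 98.6 ± 49.2 CPM with FSK and 57.7 ± 41.3 CPM with DHPG, against 72.6 ± 37.8 CPM in DMSO (SD, n = 6, 6 and 4). Without the library-set term the log2 fold change was 0.44 ± 0.48 with FSK (edgeR adjusted p = 0.63) and -0.33 ± 0.47 with DHPG (adjusted p = 0.73).

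With the library-set term, Egr1 rose with FSK by 0.89 ± 0.19 on the log2 scale (95% interval 0.48 to 1.30; edgeR adjusted p = 0.018). That call was lost without DMSO 1 (0.74, adjusted p = 0.091), DMSO 3 (0.85, adjusted p = 0.077), FSK 5 (0.82, adjusted p = 0.061), and without FSK 4 and FSK 5 together (0.90, adjusted p = 0.11). The DHPG change turned to 0.56 ± 0.21 (95% interval 0.12 to 1.001) and did not pass (adjusted p = 1.0). Within sets, the mean log2 difference from DMSO was 0.63 in deep and 1.35 in shallow libraries with FSK, and 0.69 and 0.81 with DHPG. All 6 DHPG libraries were above every DMSO library of their own set, which 3.21% of genes showed, but the shallow side rests on DMSO 1 alone and the deep side on DHPG 6 alone. FSK 6 was below DMSO 2, so the FSK libraries overlapped DMSO within the deep set.

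**Figure D2:**
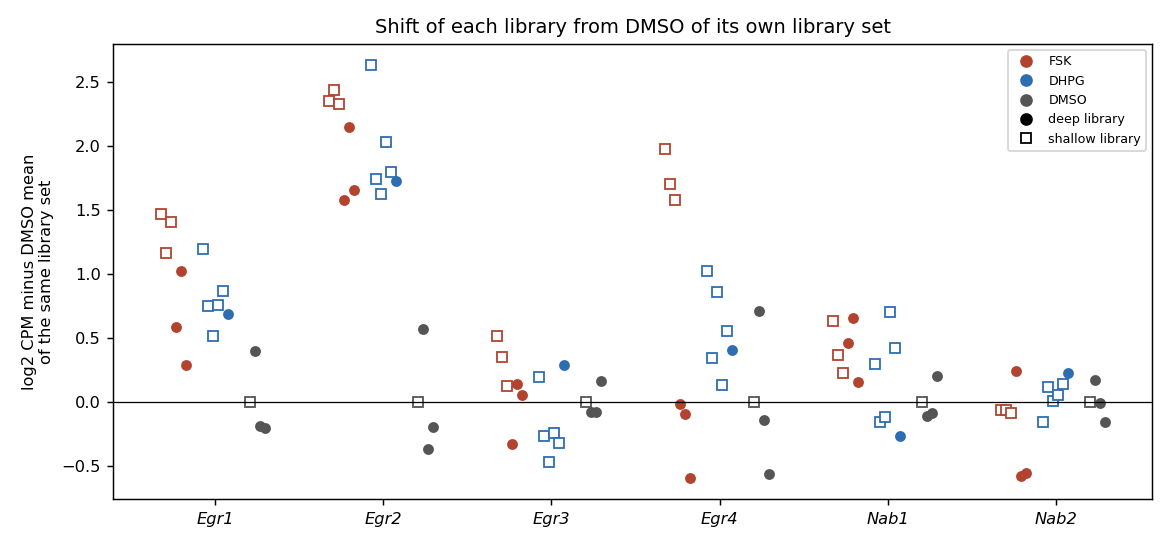
Log2 CPM of each library minus the mean log2 CPM of the DMSO libraries of the same set, for the 6 mRNAs, with FSK, DHPG and DMSO from left to right within each gene. Filled circles are deep and open squares shallow libraries, and DMSO 1 is at 0 by construction. Egr2 lies 1.58 to 2.44 above its own set's DMSO mean with FSK and 1.62 to 2.64 above with DHPG, and Egr1 lies above 0 in every treated library.

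Read as shifts from DMSO of the same set, Egr1 was 0.29 to 1.47 higher in the FSK libraries and 0.51 to 1.19 higher in the DHPG libraries on the log2 scale. Nab1 was 0.15 to 0.65 higher in the 6 FSK libraries, with a median of 0.41, and in 3 of the 6 DHPG libraries. Nab2 was above its own set's DMSO mean in 1 of 6 FSK libraries and 5 of 6 DHPG libraries. These counts are descriptions, since a treated library can exceed a mean while lying within the DMSO spread.

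Egr3 shares many target sites with Egr1 and is known for its role in muscle spindle development and in the control of neuronal receptor genes. It had 15.9, 14.2, 12.1, 15.6, 21.6 and 20.4 CPM in FSK 1 to 6 and 12.8, 9.21, 8.0, 9.40, 8.90 and 24.0 CPM in DHPG 1 to 6, against 11.1, 18.6, 18.5 and 22.0 CPM in DMSO 1 to 4. The groups overlapped, and DHPG 6, the deep DHPG library, was the highest of all 16. The log2 fold change was -0.08 ± 0.28 with FSK (95% interval -0.68 to 0.52; edgeR adjusted p = 0.90) and -0.54 ± 0.28 with DHPG (95% interval -1.14 to 0.06; adjusted p = 0.41). With the library-set term these values were 0.15 and -0.12, neither passing.

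Egr4, known from studies of male fertility and expressed in brain, was the member whose FSK response looked least alike in the library sets. It had 29.7, 24.6, 22.6, 14.7, 14.0 and 9.82 CPM in FSK 1 to 6 and 15.3, 9.54, 13.7, 8.25, 11.0 and 19.7 CPM in DHPG 1 to 6, against 7.51, 24.5, 13.5 and 10.03 CPM in DMSO 1 to 4. The 3 shallow FSK libraries were above all 5 shallow DHPG libraries and DMSO 1, which 9.68% and 39.6% of genes showed for these pairs, while the 3 deep FSK libraries lay within or below the deep DMSO range. The log2 fold change was 0.46 ± 0.35 with FSK (95% interval -0.28 to 1.21; edgeR adjusted p = 0.47) and -0.10 ± 0.35 with DHPG (adjusted p = 0.89). The mean log2 difference from DMSO with FSK was -0.24 in deep and 1.75 in shallow libraries. The fitted FSK effect was lower in the deep than in the shallow set by 2.09 ± 0.56 (unadjusted p = 0.0023), which did not pass over all genes (edgeR adjusted p = 0.40), and 3 of 17173 genes passed that test.

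**Figure D3:**
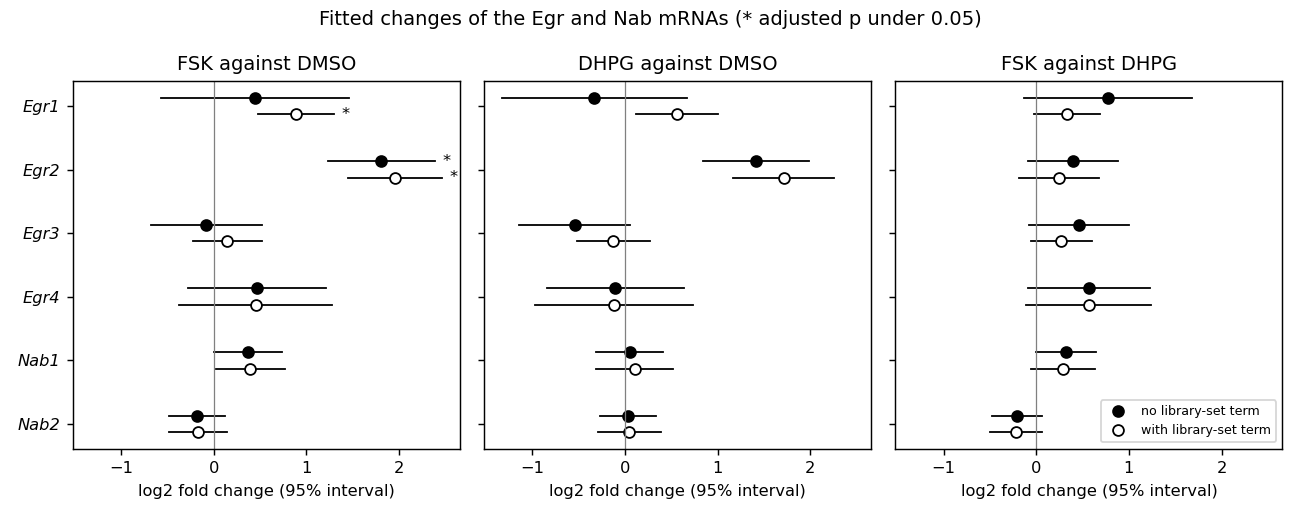
Fitted log2 fold changes of the 6 mRNAs with 95% intervals for FSK against DMSO, DHPG against DMSO and FSK against DHPG. Filled circles come from the fit without and open circles from the fit with a library-set term, and an asterisk marks an adjusted p under 0.05. The marked values are Egr2 with FSK in both fits (1.81 and 1.96) and Egr1 with FSK with the term (0.89).

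Nab1 and Nab2, the corepressors, varied less in log2 CPM than each Egr gene within DMSO and within DHPG. With FSK their SDs were 0.24 and 0.31, near those of Egr2 (0.24) and Egr3 (0.31). Egr1 (0.71) and Egr4 (0.60) varied more. Nab1 had 25.9, 21.5, 19.6, 26.6, 30.4 and 21.5 CPM in FSK 1 to 6 and 20.5, 14.9, 15.4, 27.1, 22.4 and 16.0 CPM in DHPG 1 to 6, against 16.7, 17.8, 18.2 and 22.2 CPM in DMSO 1 to 4. The groups overlapped, with FSK 1, FSK 4 and FSK 5 above every DMSO library. The FSK change was 0.37 ± 0.17 (95% interval 0.0049 to 0.74; edgeR adjusted p = 0.23), with nearly the same within-set difference in the deep (0.42) and shallow (0.41) libraries, and the DHPG change was 0.05 ± 0.17 (adjusted p = 0.89).

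Nab2 had 19.9, 19.9, 19.6, 25.6, 14.4 and 14.6 CPM in FSK 1 to 6 and 18.6, 22.5, 20.8, 21.6, 23.0 and 25.2 CPM in DHPG 1 to 6, against 20.8, 24.3, 21.5 and 19.4 CPM in DMSO 1 to 4. FSK 5 and FSK 6 were below every DMSO library, FSK 4 above every one, and the groups overlapped. The FSK change was -0.18 ± 0.14 (95% interval -0.48 to 0.13; edgeR adjusted p = 0.50) and the DHPG change 0.03 ± 0.14 (adjusted p = 0.92). These intervals bound the changes of the corepressor at 30 minutes and do not show that its level was equal.

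Set against DHPG directly, FSK gave no edgeR call for any of the 6 genes, where 30.8% of all genes passed, while limma-voom called 3, named below. The log2 fold change of FSK over DHPG was 0.77 ± 0.43 for Egr1 (edgeR adjusted p = 0.17), 0.40 ± 0.23 for Egr2 (95% interval -0.09 to 0.88; adjusted p = 0.18), 0.46 ± 0.26 for Egr3 and 0.57 ± 0.31 for Egr4 (adjusted p = 0.17 each). It was 0.32 ± 0.15 for Nab1 (adjusted p = 0.12) and -0.21 ± 0.13 for Nab2 (adjusted p = 0.22). With the library-set term the Egr2 difference was 0.25 (adjusted p = 0.38) and the Egr1 difference 0.33 (adjusted p = 0.15). The edgeR count at an unadjusted p under 0.05 was also 0 of 6, where 45.2% of all genes had one, and with the term 23.3% of all genes passed. Without DHPG 6, Egr1 (1.27, adjusted p = 0.026) and Egr3 (0.79, adjusted p = 0.022) passed, and without DHPG 4, Nab1 did (0.44, adjusted p = 0.034). The Egr2 call with FSK and its miss with DHPG are therefore not a shown difference between the agents.

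Other tests moved some of these calls. For FSK against DMSO, DESeq2 called Egr2 (1.81), where 6.71% of genes passed, and with the library-set term Egr2 (1.95) and Egr1 (0.88, adjusted p = 0.00039), where 20.8% did. For DHPG, DESeq2 with the term called Egr2 (1.70, adjusted p = 1.8e-06), where 0.147% did. Limma-voom was run with sample quality weights and without the library-set term. Under it 35.2% of genes passed with FSK, 34.7% with DHPG and 33.7% in FSK against DHPG, and it made more calls. With FSK these were Egr2 (1.78) and Egr4 (0.80, adjusted p = 0.013), and with DHPG they were Egr2 (1.35, adjusted p = 0.0024), Egr1 (-0.80, adjusted p = 0.038) and Egr3 (-0.88, adjusted p = 0.0037). For DHPG, edgeR with the library-set term gave 0.56 for Egr1 and -0.12 for Egr3, neither passing. In FSK against DHPG limma-voom called Egr2 (0.44, adjusted p = 0.041), Egr3 (0.53, adjusted p = 0.034) and Egr4 (1.05, adjusted p = 0.0077), while DESeq2 called 0 of the 6 without and with the term, where 32.8% and 31.9% of genes passed. The Nab genes were called by none of these tests.

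Ratios of counts within a library do not depend on the library total or the TMM factor used for scaling. They are compared between libraries only, since the counts are not divided by transcript length. The ratios can still differ by library set. With FSK, Egr2 to Egr1 was 0.139 to 0.179 in deep and 0.273 to 0.357 in shallow libraries. The ratio of Egr2 to Egr3 counts was 0.940 to 1.42 in FSK libraries and 0.840 to 1.66 in DHPG libraries, against 0.238 to 0.483 in DMSO. The DMSO ratios overlapped with neither agent, in the deep or the shallow libraries. Egr2 levels alone already separated in this way, and the share of other gene pairs that do so was not determined. Against Egr1, the Egr2 ratio was 0.139 to 0.357 with FSK and 0.143 to 0.403 with DHPG, against 0.0606 to 0.146 in DMSO. Here the ranges met because shallow DMSO 1 (0.146) lay above deep FSK 4 (0.139) and deep DHPG 6 (0.143). Within each set neither agent overlapped with DMSO. Deep DMSO libraries had 0.0606 to 0.0780. Shallow DHPG libraries had 0.282 to 0.403, with DMSO 1 the lone shallow DMSO library. For this ratio too, the share of other gene pairs that do so was not determined. The Nab1 to Nab2 ratio was 1.0002 to 2.11 with FSK and 0.636 to 1.26 with DHPG, against 0.732 to 1.14 in DMSO. These ranges over all libraries overlapped. These ratios were looked at after the levels were known and carry no test.

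**Figure D4:**
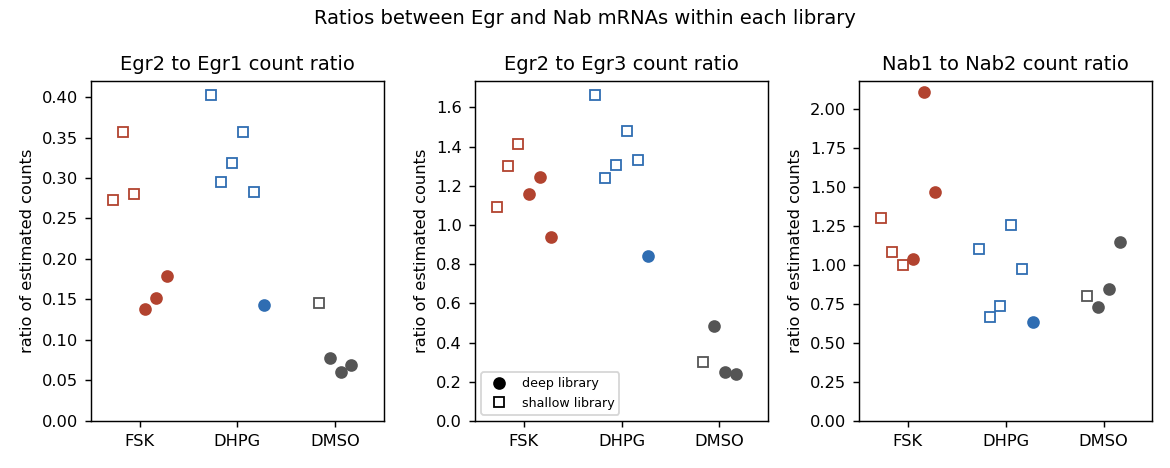
Ratios of estimated counts within each library for Egr2 to Egr1, Egr2 to Egr3 and Nab1 to Nab2, in FSK, DHPG and DMSO libraries, on linear axes from 0. Filled circles are deep and open squares shallow libraries. For Egr2 to Egr3 all 12 treated libraries lie at 0.840 or higher and the 4 DMSO libraries at 0.483 or lower. The share of other gene pairs that separate in this way was not determined.

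Across the 16 libraries, the members did not vary as 1 block. The Pearson correlation of log2 CPM was 0.84 between Egr1 and Egr3 and 0.46 between Egr1 and Egr2, and after the mean of each library set was subtracted it was 0.45 for Egr1 with Egr3 and 0.90 for Egr1 with Egr2. For Egr1 with Egr4 it was 0.39, or 0.69 after subtraction, and for Nab1 with Nab2 it was -0.38. The libraries share depth set and treatment, so these values are descriptions. Among 14701 other genes, those most like Egr2 were Nr4a1 (0.95), Fos (0.92) and Fosb (0.91). Those most like Egr1 were Ncoa3, Irf2bp2 and Arhgap17 (0.94 each), and after subtraction of the set means Ier2 (0.94), Fos (0.93) and Nr4a1 (0.93). The leading genes were A730017L22Rik, Setbp1 and Ylpm1 (0.94 each) for Egr3, Camk1, S100a16 and Jun (0.83 each) for Egr4, and Tmem203 (0.87), Pkdcc (0.84) and Gm28635 (0.82) for Nab2. After subtraction of the set means, Katnal1, Cdk18 (0.87 each) and A730017L22Rik (0.86) led for Egr3, and Setbp1 and Ylpm1 had 0.79 and 0.77. For Egr4 the leaders were then Hist1h4i, Col11a2 (0.85 each) and Acss1 (0.84), with Camk1 also at 0.84. For Nab2 they were Gm28635 (0.91), Tmem203 (0.87) and Gm26315 (0.86), and for Egr2 Nr4a1 (0.97), Fos (0.94) and Gm38257 (0.93).

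The genes upstream of the Egr family were measured for their mRNA level only. Of 18 tested kinases of the ERK pathway, SRF, Elk and related factors, 0 passed in either direction with FSK or DHPG, with median log2 fold changes of -0.11 and -0.17 against 0.02 and -0.01 over all genes tested. Srf, which binds CArG boxes, had 19.9 ± 3.09 CPM with FSK (SD, n = 6) and 23.1 ± 4.10 CPM with DHPG (SD, n = 6), against 28.8 ± 3.95 CPM in DMSO (SD, n = 4). Its FSK value was -0.53 (edgeR adjusted p = 0.082), or -0.46 with the library-set term, which passed (adjusted p = 0.045), and that of the SRF coactivator Mrtfa was -0.51 (adjusted p = 0.096). With DHPG, Srf had -0.32 and the ribosomal S6 kinase gene Rps6ka2 0.23 (adjusted p = 0.40 each). Of 17 cofactors that bind Egr or Nab proteins, mostly NuRD subunits, 0 passed with either agent (medians -0.16 with FSK and -0.01 with DHPG). The smallest p with FSK belonged to the NuRD subunits Mta1 (-0.50, adjusted p = 0.063) and Gatad2a (-0.30, adjusted p = 0.11), and with DHPG to the acetyltransferase gene Crebbp (-0.61) and to Gatad2b (-0.52; adjusted p = 0.40 each).

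Of 15 neuronal genes known as Egr targets, 2 were higher and 1 lower with FSK (median -0.30). Of all genes, 0.809% passed with FSK and 0.349% passed as higher. With DHPG 0 of the 15 passed (median -0.08), where 0.00582% of all genes did. At an unadjusted p under 0.05, edgeR had 6 of the 15 with FSK, where 21.3% of all genes had one. DESeq2 called 5 and limma-voom 5 with FSK, where 6.71% and 35.2% of all genes passed. Arc, a synaptic plasticity gene, had 198 ± 41.6 CPM with FSK and 147 ± 35.1 CPM with DHPG, against 43.6 ± 25.4 CPM in DMSO (SD, n = 6, 6 and 4; log2 fold change 2.18 with FSK, edgeR adjusted p = 0.0070, and 1.75 with DHPG, adjusted p = 0.26). Ptgs2, which encodes the prostaglandin-making enzyme COX-2, had 12.5 ± 5.29 CPM with FSK, against 3.27 ± 0.412 CPM in DMSO (1.93, adjusted p = 0.0072). Grin1, the obligatory NMDA receptor subunit, had 162 ± 20.0 CPM with FSK, against 251 ± 22.9 CPM in DMSO (-0.64, adjusted p = 0.0497). Arc and Ptgs2 passed also without FSK 4 and FSK 5 (2.33 and 1.49), and Grin1 did not (-0.53, adjusted p = 0.12). The list names known targets, and whether the Arc, Ptgs2 or Grin1 change depended on Egr proteins was not tested. With a single time point, the order of the Egr2, Arc and Ptgs2 changes cannot be read. With DHPG the synaptic vesicle gene Syn1 had -0.59 (adjusted p = 0.40). The lower range of excitatory neuron marker sums in FSK, given above, stands beside the Grin1 value, and its part in that result was not tested.

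**Figure D5:**
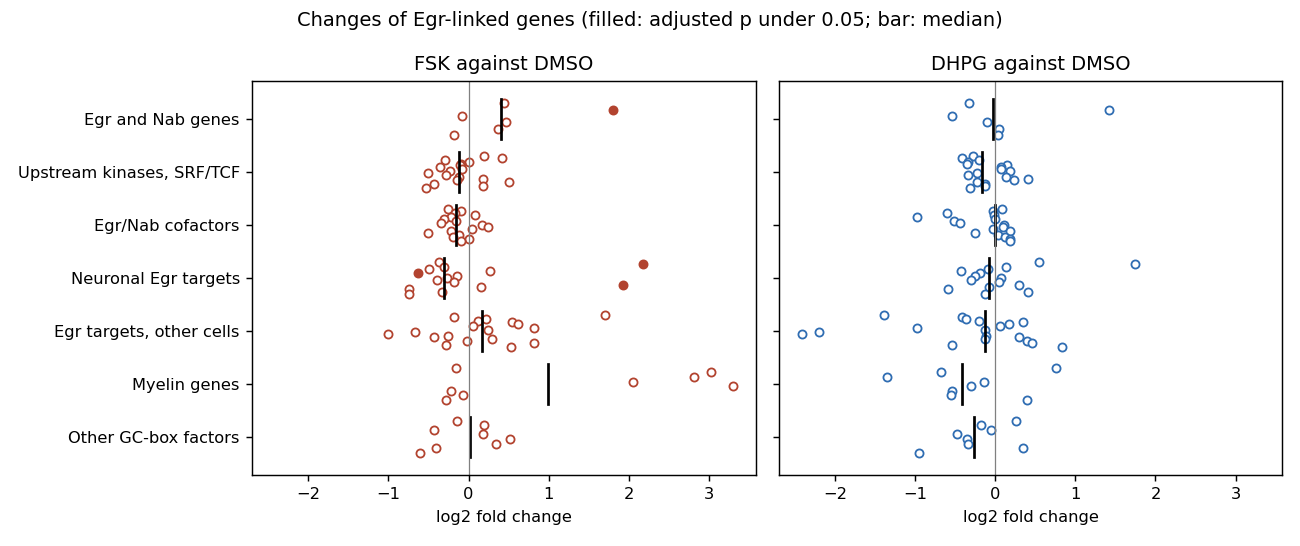
Log2 fold changes of the 6 genes and of the tested genes of 6 lists around them, for FSK against DMSO (left) and DHPG against DMSO (right). Each circle is a gene, filled where its adjusted p is under 0.05, and the vertical bar is the list's median. The filled circles with FSK are Egr2 at 1.81, Arc at 2.18, Ptgs2 at 1.93 and Grin1 at -0.64, and there are none with DHPG.

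Of 18 tested Egr targets known from other cell types, 0 passed with either agent (medians 0.17 with FSK and -0.13 with DHPG). The smallest p belonged to the stress gene Gadd45b (0.62) and the growth factor gene Pdgfa (-0.25; edgeR adjusted p = 0.13 each) with FSK, and to Id3 (-2.21) and the growth factor gene Igf2 (-2.41; adjusted p = 0.40 each) with DHPG. Of 8 tested genes that Egr2 controls in Schwann cells, 0 passed with either agent (medians 0.99 with FSK and -0.42 with DHPG). Mbp, a myelin protein gene also made by oligodendrocytes, had a log2 fold change of 2.06 with FSK (edgeR adjusted p = 0.11), and without FSK 4 and FSK 5 it was 0.93 and the list's median -0.02. The 12 oligodendrocyte lineage markers summed to 683 to 1475 CPM in FSK, 551 to 996 in DHPG and 548 to 922 in DMSO, and their part in the Mbp value was not tested. Among the Schwann cell markers, Pmp2 and Foxd3 were at 0 in every DMSO library, and the 7 markers summed to 7.82 to 25.1 CPM over all libraries. With DHPG the sterol synthesis gene Sqle had 0.40 (edgeR adjusted p = 0.40). Of 8 other factors that bind GC-rich sites like those of Egr proteins, 0 passed with either agent, with Maz (-0.43, adjusted p = 0.093) and Sp3 (0.52, adjusted p = 0.19) first with FSK and Zbtb7a (-0.95) and Sp1 (-0.49; adjusted p = 0.40 each) first with DHPG.

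The 0 counts come from edgeR, and the other tools and the unadjusted p gave these counts. At an unadjusted p under 0.05, edgeR had 4 of 18 upstream factors, 2 of 17 cofactors, 4 of 18 targets from other cells, 4 of 8 myelin genes and 2 of 8 GC-site factors with FSK, where 21.3% of all genes had one. With DHPG it had 1, 5, 2, 3 and 3 in the same order, beside 3 of 15 neuronal targets, where 12.4% of all genes had one. DESeq2 called 3, 1, 0, 3 and 1 with FSK, where 6.71% of all genes passed, and 0 in each with DHPG, beside 1 neuronal target, where 0.0255% did. Limma-voom called 7, 7, 9, 4 and 2 with FSK, where 35.2% of all genes passed, and 8, 7, 8, 3 and 3 with DHPG, beside 6 neuronal targets, where 34.7% did. With lists of 8 to 18 genes, these counts are descriptions and set no list apart from all genes.

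With the library-set term, more genes of these lists passed with FSK, as did more of all genes (9.45%). Of the upstream factors 0 were higher and 1 lower, of the cofactors 0 and 3, of the neuronal targets 2 and 2, of the targets from other cells 2 and 2, of the myelin list 3 and 0, and of the other GC-site factors 0 and 1. With DHPG and the term 0 passed in each list, where 0% of all genes did. In FSK against DHPG without the term, where 30.8% of all genes passed, the counts higher and lower in FSK were 4 and 4, 0 and 2, 2 and 6, 5 and 1, 4 and 2, and 3 and 2 in the same order. With FSK 4 and FSK 5 left out, the FSK against DMSO counts were 2 higher neuronal targets and 0 in the other lists, with and without the term.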

How the data were processed

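Total RNA of 16 libraries was analysed (6 FSK, 6 DHPG, 4 DMSO); the 16 small RNA libraries were not used here. Per the submitters' processing notes, the authors used Salmon, DESeq and GRCm38, with versions not given in the sources used here, and the labels name the TruSeq Stranded Total RNA kit. The deposited total RNA values are estimated counts, of which 26.6% are not whole, and they were rounded to whole numbers before each test. The control columns were matched to DMSO samples by number. The authors' deposited comparison tables hold log2 fold changes, standard errors (taken as a score), p-values and adjusted p-values, and are quoted where named.

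The counts were scaled by TMM factors, filtered with filterByExpr (minimum count 10) and tested by edgeR's quasi-likelihood method (edgeR 4.0.16, R 4.3.3, robust, no block, 1 fit of all 16 libraries), with Benjamini-Hochberg adjustment over 17173 genes and a limit of 0.05. CPM are scaled by library size and TMM factor, and log2 CPM used a prior count of 2. Library sets were split at 30000000 counts. Alternatives were DESeq2 1.42.0, limma-voom (limma 3.58.1), other scalings and filters, the library-set term, a replicate block and leaving out libraries. On simulated counts for FSK against DMSO over 17173 genes, 82% of changes of 1 and 95% of changes of 1.8 (log2) were recovered, and 6 of 183 calls were false. The simulated counts held no library-set effect, their spread came from a model with the set, and changes were planted only in genes above a minimum mean count. The real fit without the term carries the set spread, so these rates do not carry over to it. The libraries held 20677117 to 59958600 counts each. At these depths the SE of the Egr1 change with FSK was 0.48 without and 0.19 with the library-set term.

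The 6 genes, the lists around them and the tests were chosen with earlier results of these data known, and the Egr1, Egr2, Arc and Ptgs2 changes are among those results. All 6 genes are named in every comparison, then up to 4 passing genes of each list by smallest p or else the 2 of smallest p, and the 3 genes most correlated with each Egr gene and Nab2. DHPG values of Arc, Egr2 and the lists' first genes follow the same rule. Some genes that this rule names are not reported here.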

Additional observations from a re-analysis of the deposited data

Results flagged for a closer look

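Of 18 groups of values looked at (6 genes in 3 treatments), 2 held a library that stood apart from the others by Dixon's criterion at 95%, and chance alone flags about 1 group in 20. Egr1 in DHPG had its highest library, DHPG 6, at a log2 CPM of 7.14, with a gap to the next library that was 0.675 of the group's range. DHPG 6 is the lone deep DHPG library, and its part in this value was not tested. Egr2 in FSK had its highest library, FSK 5, at a log2 CPM of 4.75, with a gap of 0.750 of the range. FSK 5 also had the highest microglial marker sum (431 CPM), whose part in this value was not tested. Without FSK 5 the FSK change of Egr2 ranged within the values given below for leaving out 1 library.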

How the results depend on the processing

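Of the members' log2 fold changes under the alternatives, 17 came to pass, 3 no longer passed and 30 changed sign. The rest kept direction and side of the limit, and the cause was not tested. These totals leave out the 16 fits with the library-set term and 1 library left out. In those fits Egr1 with FSK passed in 13 and Egr2 with DHPG in 2. Egr2 with FSK kept its sign throughout (1.64 to 2.15 with 1 library left out).

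Members passing with FSK against DMSO (1) were 2 with limma-voom, with the set term, with block and set term and with DESeq2 and set term, 0 in deep or shallow libraries alone, and 0 to 1 with 1 library left out. With DHPG (0) they were 1 with DESeq2, with or without the term, 3 with limma-voom and 0 to 1 with 1 left out. For FSK against DHPG (0) they were 3 with limma-voom, 1 with the replicate block and 0 to 2 with 1 left out.

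All genes passing with FSK against DMSO (139) were 62 with library totals, 1221 with DESeq2, 6051 with limma-voom, 66 without filter, 83 with the groups compared alone, 531 with the replicate block, 1622 with the set term, 4598 with both, 11 in shallow libraries, 38 without FSK 4 and FSK 5 and 56 with the term added, 3503 with DESeq2 and the term, and 12 (without DMSO 3) to 427 (without DHPG 6) with 1 left out. With DHPG (1) they were 9 with DESeq2, 5960 with limma-voom, 52 with DESeq2 and the term, 0 to 5 with 1 left out, and 0 with a minimum count of 50, the groups compared alone, the replicate block, the set term, both, deep or shallow libraries alone, and without FSK 4 and FSK 5 with or without the term. For FSK against DHPG (5283) they were 2510 with library totals, 2905 without filter, 1882 with block and set term, 0 in deep and 9 in shallow libraries, 3 without FSK 4 and FSK 5, 1551 with the term added, and 1804 to 5798 with 1 left out.

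Signs changed as follows. With FSK, Egr1 was -0.26 with limma-voom and -0.036 without FSK 4 and FSK 5. Egr3 was 0.15 with the set term, 0.12 with block and term, 0.34 in shallow libraries, 0.32 without FSK 4 and FSK 5 with the term, 0.14 with DESeq2 and the term and 0.047 without DMSO 4 (lowest with 1 library left out -0.24, without DMSO 1). Egr4 was -0.34 in deep libraries. With DHPG, Egr1 was 0.56 with the term, 0.87 with block and term, 0.68 in deep and 0.84 in shallow libraries, 0.56 without FSK 4 and FSK 5 with the term and 0.55 with DESeq2 and the term. Egr3 was 0.30 in deep libraries. Egr4 was 0.019 with the replicate block, 0.58 with block and term, 0.32 in deep and 0.63 in shallow libraries, 0.077 without FSK 4 and FSK 5 with the term and -0.30 to 0.34 with 1 left out (highest without DMSO 2). Nab1 was -0.00055 with the block, -0.26 in deep libraries and -0.070 (without DHPG 4) to 0.14 with 1 left out. Nab2 was -0.016 (without DMSO 4) to 0.11 with 1 left out, and -0.013 without DHPG 6. For FSK against DHPG in deep libraries, Egr1 was -0.060, Egr3 -0.35 and Egr4 -0.65.

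Deviations of same-numbered libraries correlated from -0.41 to 0.39. Some same-numbered libraries differ in library set, as FSK 2 and DMSO 2 do, so these values cannot decide whether equal numbers mark pairs. The labels state no pairing, and a shared number is the only basis of the replicate block. With it Egr2 with FSK was 1.74 (edgeR adjusted p = 0.033) and Nab1 in FSK against DHPG passed (0.34, adjusted p = 0.039). Limits are the lone DMSO library of the shallow set, the lone DHPG library of the deep set, the unknown origin of replicates, and a single time point.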
